A study of Mus musculus with 48 samples.

Results

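The step from 45 to 90 min after release from mitosis was followed in control mouse embryonic stem (ES) cells, in the libraries labelled 45 min and 90 min of clones A04 and A10. These were 8 of the 48 libraries in the study, 4 at each time, and both clones gave 2 libraries at each time. All 8 came from ES cells of strain 129S5/SvEvBrd that carried the R42A form of Smarce1-MD, a construct of a subunit of the SWI/SNF chromatin remodelling complex, taken here as the control for the MD form. The cells had been held in nocodazole at 100 ng/ml for 6 h, collected by mitotic shake-off, washed free of the drug and returned to medium with serum and LIF, the cytokine that keeps ES cells undifferentiated. The 45 min group was sampled 45 min after the washes and the 90 min group at 90 min, and no other difference between them is given in the labels. What was sequenced was nascent RNA, labelled with 5-ethynyluridine (EU), a uridine analogue that cells build into new transcripts and that allows the new RNA to be captured.

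As background, nocodazole stops cells in mitosis by blocking microtubule growth, and transcription is largely shut down while chromosomes are condensed. After the drug is removed cells divide, rebuild the nucleus and start transcription again in G1, and ES cells have a short G1. RNA polymerase II that starts at a promoter needs time to travel through a gene, so new RNA from the far end of a long gene appears later than new RNA from near its start. Polymerase also runs on for some distance beyond the polyadenylation site before it leaves the template, so nascent RNA continues past the annotated end of a gene.

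Each library held a count for 55291 features named by gene symbol, and the counts credited to features summed to 2307748 to 2572023 per library at 45 min and 2653313 to 3149721 at 90 min. A further entry for reads outside all features was 90.3 to 91.7% of the sum at 45 min and 92.2 to 92.8% at 90 min. Features that overlap a gene on the other strand took 67.2 to 70.4% of the credited counts at 45 min and 72.9 to 74.3% at 90 min. Features lying wholly inside an other-strand gene took 13.0 to 15.9% and then 19.4 to 20.4%, and the 45 and 90 min libraries did not overlap in this share. Coding genes free of other-strand overlap took 20.6 to 24.1% at 45 min and 16.6 to 18.1% at 90 min. The strand setting of the counting is not known from the labels, so each value belongs to a feature of the given name, which is not necessarily the gene that was transcribed.

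Several pairs of opposite genes show how the counts fell. Xist, the RNA that silences an X chromosome, was credited with 4669 to 7262 counts per library, and its antisense partner Tsix, which represses Xist in undifferentiated cells, with 33 to 71. Phykpl, a phospholysine phospholyase gene, held 7118 to 8100 counts, against 173 to 283 for Hnrnpab, the RNA-binding protein gene that partly overlaps it on the other strand. Sox2, a core pluripotency factor and not one of these pairs, had 0 counts in all 8 libraries. The reason was not tested, so this is not read as a lack of Sox2 transcription. Of the ES cell markers counted, Pou5f1 stood at 27.2 to 78.0 CPM, Zfp42 at 48.0 to 65.0 CPM and Esrrb at 513 to 880 CPM (CPM, counts scaled to the same library total by the trimmed mean of M-values, TMM). Of summed markers of other cell types, neural markers stood at 52.9 to 80.1 CPM at 45 min and 18.3 to 33.4 CPM at 90 min, and trophoblast markers at 40.0 to 50.04 and 14.1 to 22.2 CPM. Mesoderm markers summed to 232 to 291 and then 171 to 194 CPM, endoderm markers to 97.3 to 118 and 97.9 to 119 CPM, and fibroblast markers to 65.2 to 83.1 and 51.3 to 70.1 CPM. Their part in the changes below was not tested. Smarce1 itself, which both groups carry as the same Smarce1-MD(R42A) construct, read 48.5, 53.4, 49.7 and 43.6 CPM at 45 min (A04 replicates 1 and 2, then A10 replicates 1 and 2, the order used throughout) and 36.4, 33.8, 37.9 and 37.9 CPM at 90 min. All 4 libraries at 90 min lay below all 4 at 45 min. The log2 fold change was -0.51 ± 0.16 (standard error, n = 2 clones, edgeR quasi-likelihood adjusted p = 0.00869), and the call was lost without clone A04 (adjusted p = 0.186), with DESeq2 (adjusted p = 0.0688), with the 4 sums of these times alone (adjusted p = 0.0563) and with nested features left out (adjusted p = 0.0586).

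Between 45 and 90 min the nascent RNA of these cells changed widely and in both directions. Of 22738 features with enough counts, 4447 (19.6%) rose and 5415 (23.8%) fell by edgeR's quasi-likelihood test at an adjusted p of 0.05, on the libraries of a clone summed at each time, with a term for the clone. The changes were large. Those above 1 on the log2 scale numbered 2561 higher and 2700 lower, and those above 2 numbered 944 higher and 534 lower. Of the 9862 called features, 9847 (99.8%) had the same sign in both clones. The calls came from a fit to these same 2 clones, which selects for such agreement, so it is no independent check. The median over all tested features was -0.07, so the values are relative to a total that itself may have changed, and in bulk samples fewer cells of a type and less RNA per cell cannot be told apart. The split of the calls followed the scaling, from 4874 higher and 4870 lower with DESeq2's size factors to 3855 and 6323 without TMM. With clone A10 left out at these times the counts were 2867 and 3388, and DESeq2 called 3807 higher and 3453 lower. Separate cultures are not stated for the paired libraries of a clone, which were summed, so their spread is not measured by the p-values. With the clone term, the p-values rest on how far the 2 clones differed in their changes. That spread was pooled over 6 conditions, with 5 residual degrees of freedom.

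Several of the features with the largest increases are genes known from other tissues. Of the 14 named, 3 overlapped a coding gene on the other strand, and these were Atg16l2, Rcbtb2 and Ndufb2. Atg16l2, an autophagy protein related to ATG16L1 (chr7:101263034-101302251, minus strand; coordinates are mm10, gene models GENCODE M21), read 7.16, 5.34, 6.30 and 4.55 CPM at 45 min and 132, 68.3, 124 and 83.9 CPM at 90 min. It rose by 4.02 ± 0.21 (log2, edgeR adjusted p = 7.16e-19), and replicate 1 was the higher library in both clones at 90 min. Asynchronous cells stood at 138 CPM, and the level was 45.7 CPM at 180 min and 25.2 CPM at 240 min. Rcbtb2, an RCC1-repeat protein (chr14:73123037-73207843, plus strand), read 41, 33.5, 28.3 and 27.3 CPM and then 333, 328, 402 and 339 CPM, an increase of 3.35 ± 0.17 (adjusted p = 4.33e-19). Unlike Atg16l2 it stood at 433 CPM at 180 min and 410 CPM at 240 min, above its 90 min mean of 351 CPM. The groups were far apart for both genes, with no library of 90 min near any of 45 min.

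Other named increases lay just beyond the end of a long gene on the other strand. Distances run from the end of that gene to the nearest edge of the feature, which is where the feature itself ends. Map6d1, a gene of a microtubule-stabilising protein family (chr16:20233303-20241358, minus strand), lies 0.730 kb after the end of Yeats2, a 91.5 kb gene of a histone acetyltransferase complex subunit. Its libraries read 7.56, 5.34, 3.50 and 4.93 CPM at 45 min and 79.5, 65.9, 80.2 and 71.7 CPM at 90 min, a change of 3.72 ± 0.22 (adjusted p = 2.17e-17). Rmdn1, a regulator of microtubule dynamics (chr4:19575162-19606932, plus strand), lies 1.37 kb after the 100.7 kb gene of the ubiquitin ligase Wwp1. It read 24.3, 21.3, 15.0 and 19 CPM and then 215, 168, 262 and 183 CPM, a change of 3.31 ± 0.18 (adjusted p = 7.84e-18). Prorsd1, a gene for a prolyl-tRNA synthetase-like domain protein, rose by 3.53 ± 0.26 and lies 0.949 kb after Ccdc88a (137 kb), and Ccdc74a, a coiled-coil protein gene, rose by 3.29 ± 0.23 and lies 0.470 kb after Med15 (81.7 kb), a Mediator subunit. Fyb2, known as an adaptor in T cells (chr4:104913456-105016863, plus strand), rose from 11.5, 9.91, 8.05 and 9.10 CPM to 109, 124, 122 and 112 CPM. It lies 13.0 kb after Prkaa2, an 80.0 kb AMP-activated kinase gene. In all 5 of these the lowest library at 90 min was above the highest at 45 min, as the rule for naming asked.

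The remaining named increases ran from 3.27 to 3.97 on the log2 scale. They were Cd8b1, a T-cell coreceptor chain (3.97 ± 0.33), Fer1l6, of the ferlin family (3.71 ± 0.22), Pip and its neighbour Sval2, secreted proteins of glands (3.69 and 3.67), Nlrp14, of the germ-line NLR family (3.37), Prf1, the pore-forming protein of killer lymphocytes (3.32), and Ndufb2, a subunit of respiratory complex I (3.27). Fer1l6 varied most between replicates at 90 min, with 105 and 116 CPM in replicate 1 of the clones and 29.8 and 39.9 CPM in replicate 2, against 2.65 to 7.16 CPM at 45 min. Prf1 lies 15.0 kb after the 63.9 kb gene Pald1.

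The named decreases showed the opposite arrangement, since 12 of 14 lay within 20 kb after a short gene on the other strand. Nfkbie, an inhibitor of NF-kappa-B (chr17:45555703-45563169, plus strand), lies 4.61 kb after Hsp90ab1, the 5.50 kb gene of an abundant chaperone. It read 159, 132, 265 and 152 CPM at 45 min and 8.23, 10.6, 6.09 and 5.70 CPM at 90 min. It fell by 4.61 ± 0.25 on the log2 scale (adjusted p = 1.93e-14) and was at 20.9 CPM at 0 min and 2.86 CPM at 240 min, so 45 min was the highest of the sampled times. Alkbh7, a mitochondrial dioxygenase gene, fell by 4.55 ± 0.25, from 51.5 to 83.6 CPM at 45 min to 2.15 to 3.31 CPM at 90 min, and lies 0.135 kb after Pspn, a growth factor gene of 0.562 kb. Pirb, an inhibitory receptor of immune cells (chr7:3711409-3720391, minus strand), lies 4.51 kb after the ribosomal protein gene Rps9 (2.91 kb). It read 171, 144, 222 and 155 CPM and then 10.2, 10.3, 12.9 and 11.8 CPM, a log2 change of -4.03 ± 0.20 (adjusted p = 3.90e-19).

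Rufy1, an endosomal protein gene (chr11:50389286-50431125, minus strand), had the highest level among the named decreases. It read 556, 483, 728 and 510 CPM at 45 min and 51.7, 53.7, 59.4 and 62.7 CPM at 90 min, a change of -3.42 ± 0.18 (adjusted p = 4.08e-18). It lies 2.76 kb after Hnrnph1 (9.54 kb), a splicing regulator whose own feature fell by 0.82 ± 0.16. Celsr2, a cadherin of planar cell polarity (chr3:108390851-108415552, minus strand), fell by 3.93 ± 0.21 and lies 2.62 kb after Psrc1 (4.39 kb), a spindle protein gene. Fam210b, a mitochondrial protein gene, fell by 3.71 ± 0.20 and lies 0.441 kb after Aurka (14.3 kb), the mitotic kinase Aurora A. Every one of these was below its 45 min level in all 4 libraries at 90 min, and at 0 min they stood at 24 to 125 CPM, between their 45 and 90 min levels.

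The other named decreases were Lingo3 (-3.72; after Oaz1), Dgcr2 (-3.66), Akap17b (-3.46; after Pgrmc1), Tmem139 (-3.46), Fmo5 (-3.43), Bphl (-3.35; 0.200 kb after the tubulin gene Tubb2a), Fcgr1 (-3.33; after the histone gene Hist2h2bb) and Scrg1 (-3.31; after Sap30, a histone deacetylase complex subunit). Among all features that met the naming rule, 538 of 1465 higher (36.7%) and 937 of 2343 lower (40.0%) lay within 20 kb after an other-strand coding gene, against 5287 of 22738 tested (23.3%). The spans of those genes had a median of 46.5 kb for the higher features (25th to 75th percentile 22.4 to 74.2 kb), 9.69 kb for the lower (4.61 to 19.9 kb) and 18.1 kb for all tested (7.37 to 43.8 kb). The rule kept only protein-coding features of 10 CPM or more that were not nested in an other-strand gene. All tested features include the rest, so the shares and spans are not compared on like sets.

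**Figure D1:**
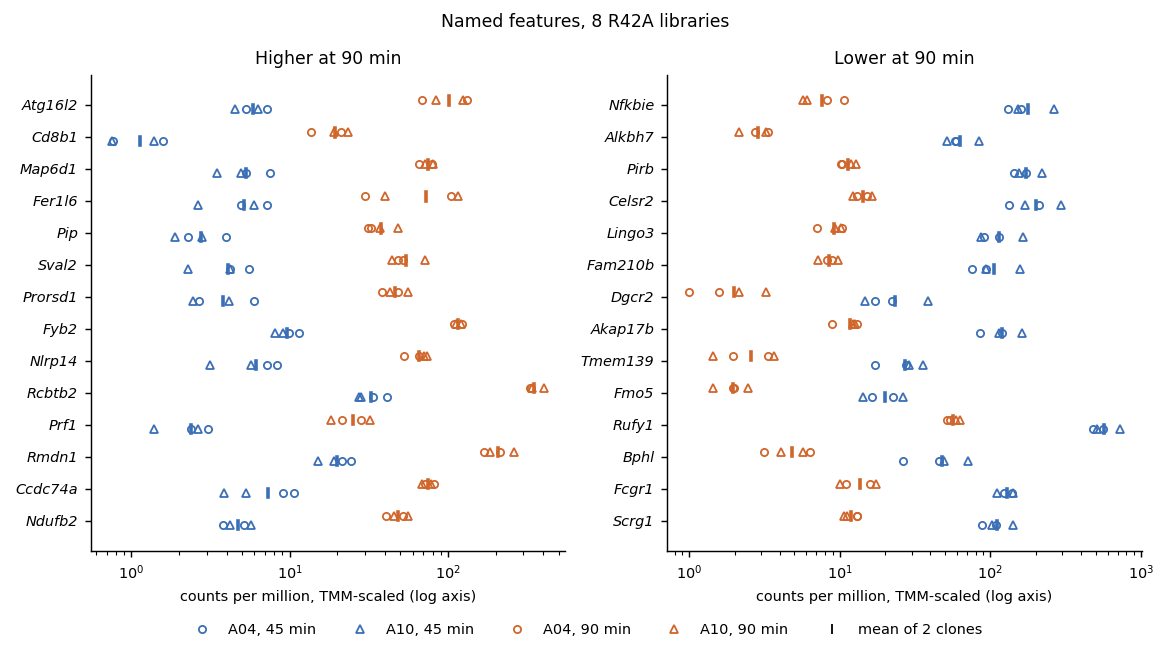
Level of each named feature (rows) in the 8 libraries, in TMM-scaled CPM on a log axis, for the 14 with the largest increase (left) and the 14 with the largest decrease (right). Circles are clone A04, triangles clone A10, blue 45 min, orange 90 min, and a bar marks the mean of 2 clones. No feature's 45 and 90 min libraries overlap, which the rule for naming required.

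The changes differed with position along the gene on the other strand. The classes were drawn after the data had been seen, and their medians are descriptions with no test. A set of 2874 tested features (12.6%) lay inside a single coding gene on the other strand, and they were classed by their distance from that gene's start. Features under 10 kb from the start had a median log2 change of -0.07 between 45 and 90 min (n = 591), with 14.7% higher and 21.2% lower. The median was 0.21 at 10 to 25 kb (n = 664), 0.63 at 25 to 50 kb (n = 567) and 1.81 at 50 to 100 kb (n = 490). At 100 to 200 kb it was 1.97 (n = 320), with 1.62 in clone A04 and 1.83 in clone A10, and 73.8% of these features rose while 2.50% fell. Beyond 200 kb the median was 0.04 (n = 242), with 28.5% higher. The share of features that rose climbed from 14.7 to 76.7% over the classes up to 100 kb and was 28.5% in the class farthest from the start.

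The steps on either side of this interval had other profiles, though they share libraries with it and are not independent of it. Between 0 and 45 min the same classes had medians of 0.88, 0.55, -0.05, -0.94, -1.55 and -1.84 from the nearest to the farthest. Between 90 and 180 min they had medians of -0.42, -0.47, -0.54, -0.58, -0.10 and 1.87, and 70.2% of the features beyond 200 kb rose in that step. The highest class median was therefore under 10 kb in the first step, at 100 to 200 kb in the step from 45 to 90 min, and beyond 200 kb in the step to 180 min.

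**Figure D2:**
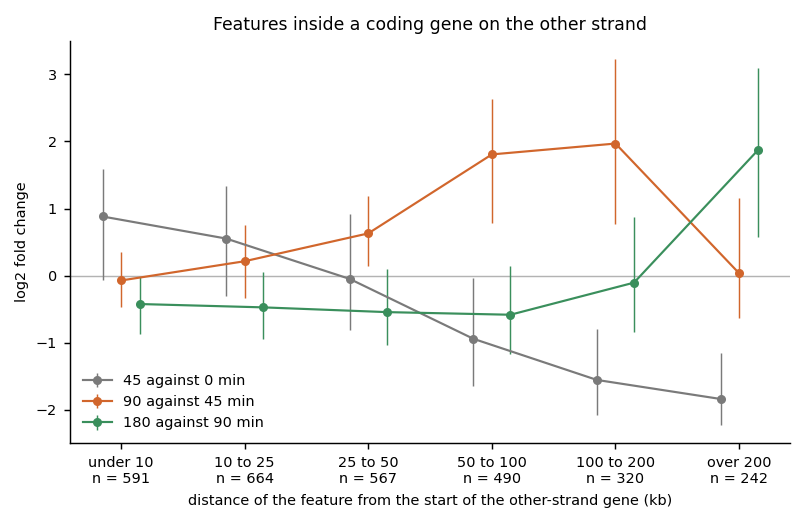
Median log2 fold change (points) with the 25th to 75th percentile of features (bars) for features inside a coding gene on the other strand, by distance from that gene's start in kb, for 3 consecutive steps in R42A cells. The 45 to 90 min medians climb from -0.07 under 10 kb to 1.97 at 100 to 200 kb and are 0.04 beyond 200 kb.

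The 3 genes that hold the most such features out to at least 100 kb were looked at singly, chosen by that count after the data had been seen. Cenpp, a 189 kb gene of a centromere protein, contains genes of matrix proteoglycans on the other strand. Ogn (osteoglycin), 36.5 kb into Cenpp, read 360, 546, 240 and 385 CPM at 45 min and 672, 827, 857 and 913 CPM at 90 min, a change of 1.02 ± 0.15. Omd (osteomodulin), at 65.1 kb, rose by 2.42 ± 0.21. Aspn (asporin), at 96.8 kb, read 121, 141, 98.3 and 102 CPM and then 990, 1029, 1172 and 1085 CPM, a change of 3.13 ± 0.16. Ecm2 (extracellular matrix protein 2), at 134 kb, read 69.6, 65.6, 51.8 and 52.7 CPM and then 1037, 1046, 1199 and 1109 CPM, a change of 4.12 ± 0.18 (edgeR adjusted p = 3.90e-19). Tes3-ps, a pseudogene at 158 kb, rose by 4.07 ± 0.24. The change grew with distance over the first 4 features of Cenpp, and the fifth was close to Ecm2. The groups did not overlap for any of these features whose library values are given.

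Nf1, the 242 kb gene of the Ras regulator neurofibromin, also had its smallest change nearest the start. Gm11198, at 32.1 kb, changed by 0.31 ± 0.20 and was not called (adjusted p = 0.212), although it was called without clone A04 (adjusted p = 0.0139) and without 45 min A04 replicate 2 (adjusted p = 0.00435). Gm11199 at 113 kb rose by 3.22 and AU040972 at 143 kb by 3.35. Omg, the oligodendrocyte myelin glycoprotein gene at 163 kb, read 4.38, 4.57, 3.15 and 1.90 CPM and then 67.0, 47.4, 88.1 and 46.8 CPM, a change of 4.07 ± 0.24, and Evi2 at 182 kb rose by 3.58, less than Omg. Lrba, a 558 kb gene of a vesicle-trafficking protein, showed no such order at the levels seen. None of its 5 features, 38.7 to 549 kb from the start, was called, with changes from -0.78 to 0.99 and mean levels under 6 CPM. Gm26343 and Gm37288 were called higher without 45 min A04 replicate 2 (adjusted p = 0.0375 and 0.0383), Gm26343 also without 90 min A10 replicate 1 (adjusted p = 0.0482) and without clone A04 (adjusted p = 0.0411), and Gm3788 lower without 90 min A04 replicate 1 (adjusted p = 0.0424). Mab21l2, 322 kb into Lrba, changed by 0.37 ± 0.32 in this step and by 3.48 between 90 and 180 min.

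**Figure D3:**
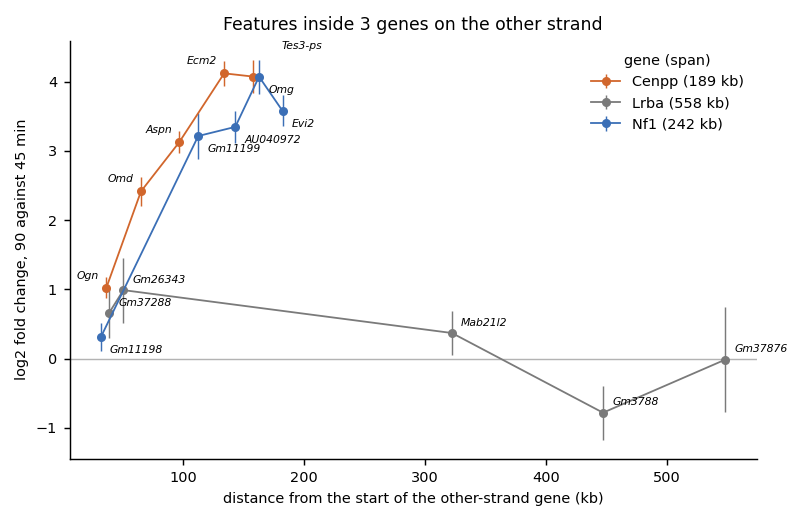
Log2 fold change from 45 to 90 min with its standard error (bars) of the features inside Cenpp, Nf1 and Lrba, against the distance in kb from the start of that gene. Features in Cenpp climb from 1.02 at 36.5 kb to 4.12 at 134 kb, with 4.07 at 158 kb, while the 5 features in Lrba lie between -0.78 and 0.99.

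Features whose nearest edge lay within 5 kb after the end of an other-strand coding gene were classed by the span of that gene. After genes under 10 kb the median log2 change was -0.69 (n = 919), with 57.1% lower and 5.98% higher, and in the preceding step from 0 to 45 min it was 1.03. After genes of 10 to 25 kb the median was -0.36 (n = 819), of 25 to 50 kb 0.08 (n = 530), of 50 to 100 kb 0.58 (n = 312), of 100 to 200 kb 0.59 (n = 162) and beyond 200 kb -0.02 (n = 73). After genes of 50 to 100 kb 51.0% of features rose. Where the gene that ended lay on the same strand as the feature, the medians were -0.35, -0.33, -0.20, -0.20, -0.07 and 0.16 from the shortest to the longest class, with fewer features in each class.

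**Figure D4:**
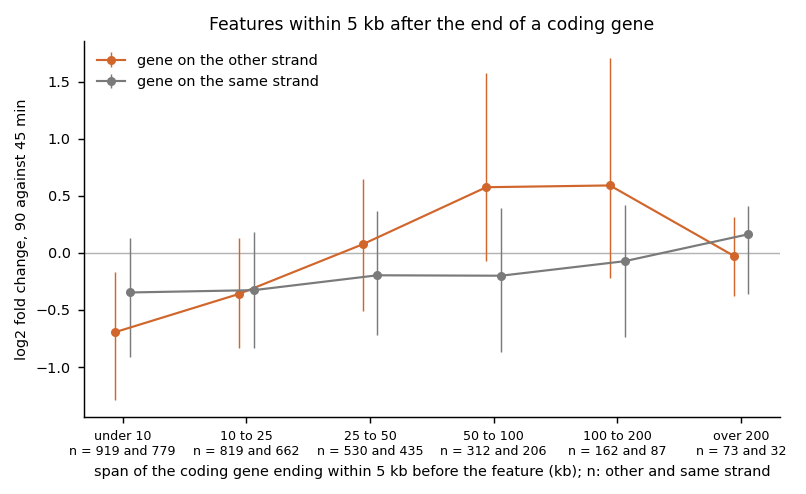
Median log2 fold change from 45 to 90 min (points) with the 25th to 75th percentile of features (bars) for features within 5 kb after the end of a coding gene, by the span of that gene in kb, for genes on the other strand (orange) and on the same strand (grey). The other-strand medians run from -0.69 after genes under 10 kb to 0.59 after genes of 100 to 200 kb, and the same-strand medians from -0.35 to 0.16.

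Some highly counted features lay after such genes. Nfe2l3, a stress-response transcription factor gene, lies 2.16 kb after Hnrnpa2b1 and read 1756, 1847, 1689 and 1870 CPM at 45 min and 567, 612, 610 and 650 CPM at 90 min. It fell by 1.64 ± 0.14 on the log2 scale (edgeR adjusted p = 9.86e-13), while Hnrnpa2b1 itself changed by -0.01 ± 0.16. Slc10a1, a bile acid transporter known from liver, lies after Srsf5 and read 1412, 1351, 1471 and 1382 CPM and then 618, 611, 632 and 638 CPM. Its change was -1.26 ± 0.13 (adjusted p = 3.40e-10), and that of Srsf5, a splicing factor, was -0.19 ± 0.16 and was not called. Both features fell in all 4 libraries with groups far apart, and the own features of the neighbouring splicing genes did not pass the test. Kcnq1, a potassium channel gene over the antisense RNA Kcnq1ot1, read 3155, 3522, 2182 and 2661 CPM and then 5380, 5069, 5770 and 5793 CPM. It rose by 0.86 ± 0.15 and Kcnq1ot1, at 25.9 to 65.9 CPM, by 0.76 ± 0.18.

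Because of this, the other-strand features inside a coding gene or within 5 kb after it were also summed to that gene and tested in a fit of their own, a choice made after the data had been seen. Of 4706 genes with such sums, 1249 (26.5%) rose and 1460 (31%) fell. For the lists below they are named other-strand sums, and their calls are given beside those of the genes' own features. Some sums hold the counts of features named above and are not independent of them. Pirb is in the sum of Rps9, Rufy1 in that of Hnrnph1, Fam210b in that of Aurka and Nfkbie in that of Hsp90ab1.

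The gene lists were compared with the background of 19.6% higher and 23.8% lower over all features, and most of them held more lower calls than that. The lists and the members were drawn up with results of these data known, so their counts are descriptions and no list was tested as a set. The background includes noncoding features, so it is not a like set for lists of coding genes. Protein-coding features had a median of -0.43 under 5 kb and -0.30 at 5 to 20 kb, against -0.02 and -0.21 for all features. Beyond 200 kb both medians were 0.17. Neighbours on the other strand are given for some members only.

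**Figure D5:**
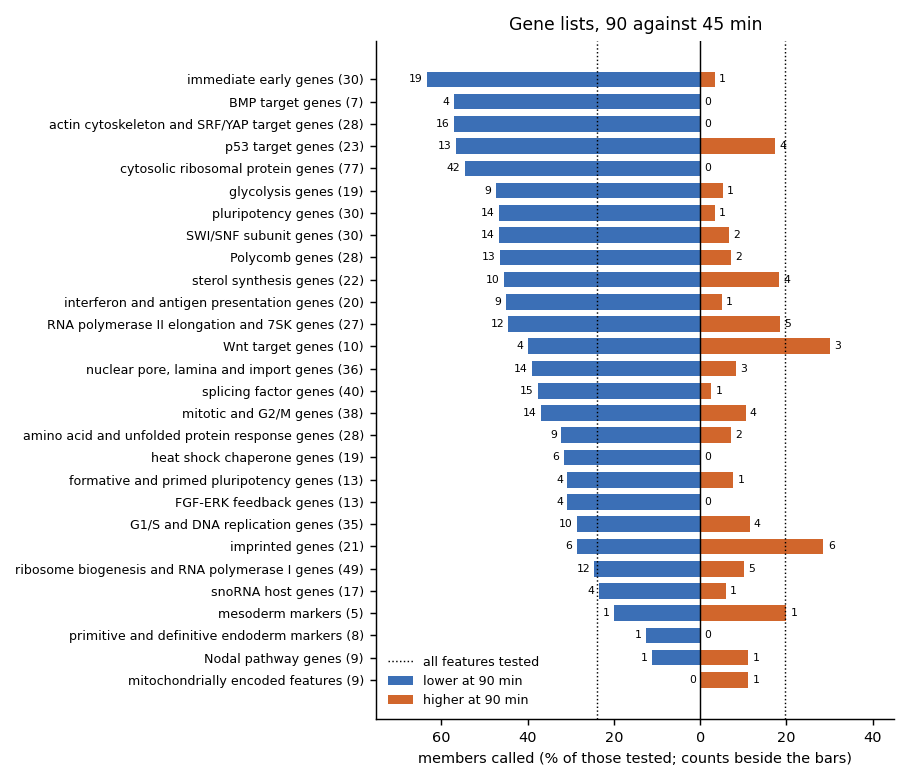
Share of tested list members called lower (left, blue) and higher (right, orange) at 90 min, in percent, with the number called beside each bar and the number tested in parentheses. Dotted lines mark 23.8% lower and 19.6% higher over all features tested. Lists with 5 or more members tested are shown, and among them immediate early genes have the largest share lower (19 of 30).

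Immediate early genes, which cells switch on within minutes of serum or stress signals, were mostly lower at 90 than at 45 min. Of 30 tested, 19 fell and 1 rose (Arc, a synaptic activity gene, 1.303 ± 0.23), with a median log2 change of -0.77 against -0.07 over all features. Egr2, a zinc-finger transcription factor, read 26.6, 29.4, 43.4 and 30.3 CPM at 45 min and 10.2, 7.29, 11.8 and 6.11 CPM at 90 min, a change of -1.95 ± 0.20 (edgeR adjusted p = 1.44e-10). It stood at 9.44 CPM at 0 min and at 11.0 CPM at 180 min, so 45 min was its highest time. The Egr2 feature lies 2.32 kb after the other-strand gene Ado (4.45 kb). Fosb, of the AP-1 family, changed by -1.86 ± 0.27, from 12.1 to 18.9 CPM down to 3.58 to 5.88 CPM. Ier3, an early survival gene, changed by -2.63 ± 0.41, from 4.19 to 9.45 CPM to 0.392 to 1.79 CPM. Zfp36l1, which promotes decay of AU-rich messages, read 23.5, 19.1, 29.0 and 29.6 CPM and then 11.4, 11.3, 8.59 and 11.4 CPM. All 4 of these had separate groups, but they were taken by smallest adjusted p, which favours this, as for most list members named below. Groups were also separate in the 1465 higher and 2343 lower features that met the naming rule, so separation is not particular to these genes. Jun (0.18 ± 0.22), Btg2 and Mcl1 were among the 10 not called. Of 3 other-strand sums 2 fell. Without clone A10 the list had 11 lower.

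FGF-ERK feedback genes, which FGF signalling induces and which damp it, had 4 of 13 lower and none higher, with a median of -0.09. The ETS factor Etv5 read 87.5, 89.2, 110 and 88.7 CPM and then 41.1, 40.1, 41.5 and 41.1 CPM, a change of -1.30 ± 0.17 (edgeR adjusted p = 3.83e-08). The phosphatase Dusp5 changed by -1.27 ± 0.20 and Spry1, an inhibitor of receptor signalling, by -1.20 ± 0.27. Dusp1 was the fourth. Of 5 other-strand sums 1 rose and 1 fell.

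Actin cytoskeleton and SRF/YAP target genes had 16 of 28 lower and none higher, with a median of -0.66, and the count stayed within 1.5 times under every alternative run. SRF is a transcription factor that responds to actin dynamics, YAP one that responds to cell shape and contact. Ajuba, an adhesion-linked LIM protein, read 89.9, 78.9, 148 and 120 CPM at 45 min and 20.8, 23.5, 14 and 20.8 CPM at 90 min, a change of -2.54 ± 0.20 (edgeR adjusted p = 3.24e-13). Amotl2, a YAP-binding junction protein, changed by -2.10 ± 0.20, and Cnn1 (calponin) by -1.91 ± 0.19. Vinculin (Vcl), which links actin to adhesions, read 303, 344, 287 and 351 CPM and then 116, 135, 137 and 133 CPM, a change of -1.39 ± 0.14. Vcl had stood at 71.7 CPM at 0 min, so its 45 min level was the highest of the times sampled. The Vcl feature overlaps a coding gene on the other strand. Actb changed by -0.64 ± 0.16, a call lost without clone A10 (adjusted p = 0.0796), and Actg1 by -0.21 ± 0.30, which was not called. None of 8 other-strand sums of these genes was called in either direction.

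The CArG box (CC, 6 letters of A or T, GG) is the sequence that SRF binds, and the 250 bases before the start of each gene (RefSeq, GRCm38.p6) were searched for it on both strands, together with the cyclic-AMP element TGACGTCA and TATAAA. Of 26 actin and SRF/YAP genes with such a window, 5 held a CArG box (19.2%), against 1.62% of 27025 genes. The box was in 2 of 15 genes that fell and 3 of 11 that were not called. Of the 25 immediate early genes with a window 3 held it (12%), all among the 13 that fell, and 7 held TATAAA, 6 of them among those 13, against 14.3% of all genes. TGACGTCA was found in 2 of the 25 and in 1.77% of all genes. A match is a description of the letters and not a site. The windows of 3 genes that fell and hold the box are shown, chosen also by chromosome and by little overlap with the gene's own model. In the Cnn2 window 16 bases lie inside the GENCODE gene model, and in the Srf window 13. The 3 windows are printed with CArG boxes and the TATA-like letters in capitals. They are chr14:20929148-20929397 (plus strand) for Vcl, chr10:79988350-79988599 (plus strand) for Cnn2 and chr17:46556163-46556412 (minus strand) for Srf, each 5′ to 3′ in the direction of the gene.
Vcl: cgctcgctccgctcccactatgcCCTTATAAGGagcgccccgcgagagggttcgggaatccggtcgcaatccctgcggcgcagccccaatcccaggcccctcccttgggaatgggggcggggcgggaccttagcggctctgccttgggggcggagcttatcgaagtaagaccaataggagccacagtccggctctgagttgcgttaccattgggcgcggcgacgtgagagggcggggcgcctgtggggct
Cnn2: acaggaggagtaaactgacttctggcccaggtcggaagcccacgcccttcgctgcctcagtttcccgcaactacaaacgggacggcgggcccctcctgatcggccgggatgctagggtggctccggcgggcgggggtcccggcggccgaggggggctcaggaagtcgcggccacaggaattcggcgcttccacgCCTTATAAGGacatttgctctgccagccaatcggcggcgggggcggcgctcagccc
Srf: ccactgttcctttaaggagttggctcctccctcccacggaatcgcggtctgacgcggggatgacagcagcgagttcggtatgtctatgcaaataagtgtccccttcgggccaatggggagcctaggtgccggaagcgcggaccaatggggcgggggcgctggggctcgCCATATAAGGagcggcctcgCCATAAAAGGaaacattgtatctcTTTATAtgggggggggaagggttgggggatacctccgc

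The nearest box ended 217 bases before the start in Vcl, 46 bases before it in Cnn2 and 52 bases before it in Srf, which held 2 boxes. Cnn2, a calponin, read 17.5, 19.1, 35.3 and 13.6 CPM at 45 min and 4.70, 7.62, 10.4 and 6.52 CPM at 90 min, a change of -1.63 ± 0.23 (edgeR adjusted p = 1.55e-07). Srf itself read 9.94, 11.1, 14.7 and 14.8 CPM and then 7.05, 9.28, 7.16 and 4.89 CPM. Its groups did not overlap, and its change was -0.89 ± 0.25 (adjusted p = 0.00343), a call lost without clone A10 (adjusted p = 0.397).

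Pluripotency genes had 14 of 30 lower and 1 higher (Stat3, the LIF signal transducer, 0.67), with a median of -0.39. Pou5f1, which encodes OCT4, read 64.8, 54.1, 78.0 and 64.4 CPM at 45 min and 40.7, 27.2, 36.5 and 31.0 CPM at 90 min. Its feature lies 1.96 kb after the other-strand gene Tcf19 (4.09 kb). The groups did not overlap, and the change was -1.04 ± 0.16 (edgeR adjusted p = 1.13e-06). Klf2 changed by -1.27 ± 0.25, the zinc-finger factor Sall4 by -0.95 ± 0.17 and the nuclear receptor Nr5a2 by -0.91 ± 0.16. Nanog, at 11.8 to 20.6 CPM and then 10.9 to 15.5 CPM, changed by -0.38 ± 0.20 and was not called (adjusted p = 0.127), nor were Zfp42 (0.05 ± 0.16) and Esrrb (0.29 ± 0.14, adjusted p = 0.0838). Esrrb passed under some alternatives, as higher, for example with DESeq2's size factors (adjusted p = 0.0348). Klf4 (-0.60) and Tfcp2l1 (-0.56) lost their calls without clone A10 (adjusted p = 0.322 and 0.486), and Tfcp2l1 also with DESeq2 (adjusted p = 0.0902), with the 4 sums of these times alone (adjusted p = 0.0503) and with nested features left out (adjusted p = 0.0553). The list's lower count was 5 without clone A10, 6 with DESeq2, and 8 both with the 4 sums of these times alone and with nested features left out. The higher count was 2 under 12 alternatives, 4 of them leaving out a single library, 4 with nested features left out and 0 without clone A04. All 4 other-strand sums fell, with a median of -1.12.

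Of formative and primed genes, which mark the exit from the naive state, 4 of 13 fell and 1 rose. Foxd3, a forkhead factor, rose by 1.01 ± 0.26, from 3.43 to 5.97 CPM to 7.29 to 12.5 CPM, and lost its call in edgeR without clone A10 (adjusted p = 0.0663). Otx2 changed by -1.23 ± 0.35 and lost its call without clone A04 (adjusted p = 0.152) and with DESeq2 (adjusted p = 0.110), and DESeq2 left 1 lower in the list, with 2 lower without clone A10. Of 4 other-strand sums 2 rose and 1 fell, with a median of 1.13.

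Mitotic and G2/M genes, whose products run cell division, had 14 of 38 lower and 4 higher, with a median of -0.30. Cdc20, the activator of the anaphase-promoting complex, read 36.6, 26.3, 31.8 and 29.2 CPM at 45 min and 16.5, 11.6, 19.3 and 11.8 CPM at 90 min, a change of -1.15 ± 0.18 (edgeR adjusted p = 1.98e-06). Cdk1, the mitotic kinase, changed by -1.55 ± 0.25 and the Polo-like kinase Plk1 by -1.69 ± 0.32, from 4.55 to 11.5 CPM to 1.63 to 3.22 CPM. Plk1 lies 0.02 kb after the other-strand gene Ern2 (16.3 kb). Nusap1, a spindle-bundling protein, went the other way and read 34.2, 36.6, 30.4 and 36.4 CPM and then 86.2, 71.3, 85.9 and 65.2 CPM, a rise of 1.08 ± 0.16, while its other-strand sum fell by 0.81. Nusap1 and Cdc20 both overlap a coding gene on the other strand. All 6 called of 10 other-strand sums fell, the largest being Aurka (-3.85 ± 0.21), Aurora A kinase, whose own feature changed by -0.86. The lower count moved under several alternatives, to 6 with DESeq2 or without clone A04, 8 without clone A10, without filtering, with the 4 sums of these times, with nested features left out or without 90 min A04 replicate 2, and 9 without replicate 1 of either clone at 45 min.

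G1/S and DNA replication genes had 10 of 35 lower and 4 higher, with a median of -0.21. The increases were Gins1 (1.75 ± 0.22) and Gins2 (1.03), of the replicative helicase, Pola1 (1.72 ± 0.18), the catalytic subunit of the priming polymerase, and Ccne2 (0.81), a G1/S cyclin. Pola1 read 13.9, 15.6, 21.3 and 17.8 CPM and then 53.7, 62.0, 68.0 and 57.0 CPM, and its other-strand sum rose by 2.32. Over the list 6 of 9 other-strand sums fell and 2 rose, with a median of -0.83. Gins1 read 6.36, 9.53, 8.40 and 7.20 CPM and then 24.3, 24.5, 31.5 and 33.4 CPM. It lies 3.24 kb after the other-strand gene Ninl (105 kb). Rfc4, a clamp loader subunit that overlaps another gene in part, fell by 1.63 ± 0.20 on the log2 scale (edgeR adjusted p = 9.99e-08). Cdkn1a, the p53-induced inhibitor of cyclin-dependent kinases, is in this list and among the p53 targets, and read 101, 62.5, 115 and 105 CPM and then 50.5, 42.1, 40.1 and 39.1 CPM, a change of -1.24 ± 0.16. Without clone A10 6 were lower.

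Of 23 p53 target genes, which p53 induces after damage or a long mitosis, 13 fell and 4 rose, with a median of -0.60. Zmat3, an RNA-binding protein, read 60.1, 55.3, 96.2 and 71.6 CPM at 45 min and 29.4, 27.5, 26.5 and 21.2 CPM at 90 min, a change of -1.52 ± 0.18 (edgeR adjusted p = 2.40e-09). Sesn2, a stress-responsive inhibitor of mTORC1 that is also among the amino acid response genes, changed by -1.58 ± 0.19. Bax (-1.28), Pmaip1 (-1.11) and Bbc3 (-0.93), which drive apoptosis, also fell, while Mdm2 (0.68), the ligase that degrades p53, Perp (1.39), Trp53inp1 (0.75) and Polk (0.55) rose. Without either clone 2 rather than 4 were higher. Of 5 other-strand sums 3 fell and 1 rose. Heat shock chaperone genes had 6 of 19 lower and none higher. Members named by smallest p were Hspa4l (-0.65 ± 0.17), Bag3 (-1.004 ± 0.27) and Dnajb1 (-0.62 ± 0.19), and each lost its call in at least 1 alternative. Dnajb1 lost it without 45 min A10 replicate 1 (log2 change -0.37, adjusted p = 0.151). The count was 1 with DESeq2 or without clone A10 and 3 without clone A04. Of 6 other-strand sums 5 fell, the largest Hsp90ab1 at -2.67, a gene whose own feature was not called.

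Cytosolic ribosomal protein genes had 42 of 77 lower and none higher, with a median of -0.49. Rps10 read 15.5, 14.5, 22.4 and 17.1 CPM at 45 min and 2.74, 2.98, 5.01 and 2.04 CPM at 90 min, a change of -2.50 ± 0.27 (edgeR adjusted p = 4.70e-10). Rpl41 changed by -1.06 ± 0.17, and neither gene's groups overlapped. Ribosomal protein genes have many near-identical processed copies, so how the counting split their reads makes single genes uncertain. All 18 other-strand sums of the family fell, with a median of -1.29, among them Rps9 (-4.17), Rpl10a (-2.75) and Rpl8 (-2.19). The lower count was 17 without clone A10, 24 with DESeq2 and 27 without 90 min A04 replicate 2. Ribosome biogenesis and RNA polymerase I genes had 12 of 49 lower and 5 higher, with a median of -0.06 that turned to 0.01 with DESeq2's size factors. Bysl and Rrs1, ribosome assembly factors, changed by -0.73 ± 0.15 and -0.78 ± 0.18, and Fbl (fibrillarin) by -0.80 ± 0.18, a call lost without clone A10 (adjusted p = 0.156). Without clone A10 6 were lower and 1 higher, and without clone A04 2 were higher. Of 14 other-strand sums 4 rose and 6 fell, with a median of -0.05.

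Splicing factor genes had 15 of 40 lower and 1 higher, Srsf11, with a median of -0.22. Hnrnpf, which binds G-rich RNA, read 221, 205, 325 and 279 CPM and then 112, 106, 95.2 and 101 CPM, a change of -1.39 ± 0.15 (edgeR adjusted p = 6.67e-10), and Hnrnpl changed by -1.08 ± 0.15. Of 18 other-strand sums 8 fell and 2 rose, with Hnrnph1 at -3.56 ± 0.18, Hnrnpa1 at -2.53 and Hnrnpa2b1 at -1.77. Without clone A10 7 were lower, and with DESeq2 9. The higher count was 3 under 9 alternatives, DESeq2 among them, 2 without 45 min A04 replicate 1 or 90 min A10 replicate 2, and 0 without clone A10. Nuclear pore, lamina and import genes, whose products rebuild the nucleus after division, had 14 of 36 lower and 3 higher, with a median of -0.26. Lmnb2, lamin B2, read 71.6, 66.0, 92.4 and 65.2 CPM and then 21.5, 18.6, 20.8 and 16.3 CPM, a change of -2.02 ± 0.17 (adjusted p = 1.04e-12). Nup107 of the pore scaffold changed by -1.26 ± 0.17. Nup88, which partly overlaps another gene, went the other way and read 19.5, 17.5, 19.2 and 19.7 CPM and then 68.2, 72.2, 77.3 and 76.6 CPM, a rise of 1.87 ± 0.18. Both groups were tight and far apart. Of 8 other-strand sums 4 rose and 1 fell. The lower count was 8 without clone A10 and 9 with DESeq2.

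Among chromatin regulators, SWI/SNF subunit genes had 14 of 30 lower and 2 higher, with a median of -0.41. Smarcc2, a core scaffold subunit, lies 0.378 kb after Myl6 and read 292, 250, 446 and 289 CPM at 45 min and 76.0, 85.2, 70.9 and 81.5 CPM at 90 min, a change of -2.12 ± 0.16 (edgeR adjusted p = 2.65e-14). Ss18l1 changed by -1.82 ± 0.17, Smarcd2, which lies 0.059 kb after Psmc5, by -1.26 ± 0.16, and the core subunit Smarcb1, 0.828 kb after Derl3, by -1.08 ± 0.16. The increases were Arid2 (1.06) and Smarcc1 (0.40). Of 12 other-strand sums 4 rose, 1 fell and 7 were not called, with a median of 0.12, the increases being Arid1b (2.21), Bicra (1.28), Bcl11a (1.10) and Pbrm1 (0.72). Pbrm1's own feature fell by 1.08. DESeq2 left 9 lower, and the higher count was 1 without clone A04 or without any of 45 min A04 replicate 2, 45 min A10 replicate 2 and 90 min A04 replicate 1.

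Polycomb genes, which encode writers and readers of repressive histone marks, had 13 of 28 lower and 2 higher, with a median of -0.41. Phf1, a PRC2 accessory protein that partly overlaps another gene, read 124, 106, 160 and 111 CPM and then 35.3, 31.8, 24.3 and 26.5 CPM, a change of -2.18 ± 0.17 (edgeR adjusted p = 4.82e-14). Phc1 of PRC1, 0.051 kb after M6pr, changed by -1.27 ± 0.16, and Pcgf2, 0.202 kb after Cisd3, by -1.11 ± 0.16. Ezh2 (0.63), the PRC2 methyltransferase, and Jarid2 (0.88) rose. Of 8 other-strand sums 4 rose and 2 fell, with Jarid2 at 2.95 ± 0.16 and Phc3 at 1.83. The lower count was 4 with DESeq2 and 5 without clone A10. RNA polymerase II elongation and 7SK genes, whose products release paused polymerase, had 12 of 27 lower and 5 higher, with a median of -0.45. Brd2, a bromodomain protein that partly overlaps another gene, changed by -1.31 ± 0.16 and Cdk9, the kinase of P-TEFb, by -1.32. Ccnh, a TFIIH cyclin, read 19.5, 26.3, 16.1 and 20.5 CPM and then 82.7, 85.2, 122 and 85.9 CPM, a rise of 2.11 ± 0.19 (adjusted p = 1.68e-11), and Nelfa, a pausing factor, rose by 1.18 ± 0.17. Both of these overlap another gene in part. Of 10 other-strand sums 1 rose and 3 fell. The lower count was 4 without clone A10 and 7 with DESeq2.

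Imprinted genes, expressed from 1 parental allele, had 6 of 21 lower and 6 higher, with a median of -0.23. The clones went opposite ways, with a list median of -0.47 in A04 and 0.33 in A10. Peg3, a zinc-finger protein gene, read 50.5, 54.5, 47.2 and 34.5 CPM and then 15.7, 16.2, 14.3 and 13.0 CPM, a change of -1.74 ± 0.18 (edgeR adjusted p = 8.07e-11). Grb10, a growth-signalling adaptor, rose by 1.60 ± 0.20 and Rian, a maternal non-coding RNA, by 1.70 ± 0.21, with groups that did not overlap. Of 5 other-strand sums 3 fell. The alleles were not distinguished.

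Of metabolic lists, glycolysis genes had 9 of 19 lower and 1 higher, with a median of -0.42. Gapdh, which partly overlaps another gene, read 76.4, 71.3, 102 and 84.9 CPM and then 39.2, 39.1, 42.6 and 38.7 CPM, a change of -1.15 ± 0.16 (edgeR adjusted p = 9.75e-08), and the glucose transporter Slc2a1 changed by -1.14 ± 0.17. Of 7 other-strand sums 5 fell. Without clone A10 it had 3 lower. Sterol synthesis genes had 10 of 22 lower and 4 higher, with a median of -0.54. Tm7sf2, a sterol reductase 0.349 kb after Znhit2, read 126, 105, 188 and 143 CPM and then 26.6, 29.5, 26.1 and 31.4 CPM, a change of -2.38 ± 0.17 (adjusted p = 4.65e-15). Sqle, squalene epoxidase, read 32.2, 28.2, 23.8 and 31.8 CPM and then 73.3, 81.5, 78.8 and 77.4 CPM, a rise of 1.34 ± 0.16. Of 6 other-strand sums 3 fell and 1 rose. With clone A10 left out 5 fell.

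The remaining lists are given by their counts. Amino acid and unfolded protein response genes had 9 of 28 lower and 2 higher, interferon and antigen presentation genes 9 of 20 lower and 1 higher, Wnt targets 4 of 10 lower and 3 higher, BMP targets 4 of 7 lower, Nodal pathway genes 1 of 9 in each direction and snoRNA host genes 4 of 17 lower and 1 higher. Without clone A10 the lower counts were 4 for the amino acid response, 3 for interferon, 2 each for Wnt, BMP and snoRNA host genes and 0 for Nodal. Interferon genes had 5 lower with DESeq2 or without clone A04, and 2 higher under 10 alternatives, among them without 45 min A04 replicate 1, 45 min A10 replicate 2 or 90 min A04 replicate 1. SnoRNA host genes also had 2 lower without 45 min A10 replicate 1. Other-strand sums fell for 4 of 5 amino acid response, 2 of 4 interferon, 2 of 3 Wnt and both Nodal genes, and for 2 of 10 histone genes, with none of these higher, and 2 of 5 rose for mitochondrially encoded features. Of 9 tested mitochondrially encoded features 1 rose, and of 53 replication-dependent histone genes 2 were in the table and 1 was tested. The single two-cell-like gene tested of 14, Sp110, rose, a call lost without 45 min A04 replicate 2 or without clone A10. Of the markers of other cell types, 1 of 5 tested mesoderm markers rose and 1 fell, 1 of 8 endoderm, 1 of 4 neural and 2 of 3 trophoblast markers fell, and 1 of 4 fibroblast markers moved in each direction. The endoderm call was lost without replicate 1 of A10 at either time, and 2 neural markers fell without 45 min A04 replicate 1 or 2, 45 min A10 replicate 2 or 90 min A04 replicate 1. Of the markers' other-strand sums 2 of 3 mesoderm sums fell, and 2 of 2 endoderm and 1 of 2 neural sums rose.

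By the length of the feature itself the differences were smaller than by its place on the other strand. The median log2 change was -0.02 for features under 5 kb (n = 5186), -0.21 at 5 to 20 kb (n = 6506), -0.13 at 20 to 50 kb (n = 5005), 0.01 at 50 to 100 kb (n = 2674), 0.12 at 100 to 200 kb (n = 1628) and 0.17 beyond 200 kb (n = 1055). The SD over the 2 clones was 0.002 to 0.104 in these classes. Among features beyond 200 kb 26.7% rose and 10.5% fell, and among those of 5 to 20 kb 17.5% rose and 29.8% fell. For protein-coding features alone the shortest class had a median of -0.43.

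A difference between the clones was called in few features. The step differed between clones A04 and A10 in 10 of 20938 features (0.0478%) by the interaction test on single libraries, and 1874 had an unadjusted p under 0.05. With 2 libraries for a clone and time the test can miss differences, so few calls do not show that the clones moved alike. List medians in A04 and A10 were -0.55 and -1.08 for immediate early genes and -0.22 and -0.57 for pluripotency genes. Wnt targets differed the other way, with -0.79 and -0.42. Igf2r, the imprinted receptor that clears IGF2, was among the 10 and read 299 and 323 CPM in clone A04 at 45 min against 138 and 148 CPM in clone A10, then 176 and 185 against 189 and 214 CPM at 90 min. Its step was -0.87 in clone A04 and 0.40 in clone A10, a difference of 1.27 ± 0.26 (edgeR adjusted p = 0.0433). The clones stood apart at 45 min and close together at 90 min. Airn, the non-coding RNA on its other strand, read 902, 1094, 662 and 809 CPM and then 593, 667, 614 and 694 CPM, a change of -0.51 ± 0.14 that was not called without clone A04 (adjusted p = 0.311) or with the 4 sums of these times alone (adjusted p = 0.0573). Nup214, a pore protein, had a step of -0.71 in clone A04 and -2.08 in clone A10.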

How the data were processed

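EU-labelled nascent RNA was measured in 8 control libraries at 45 and 90 min, with the other 16 control libraries used to estimate the spread. The values are whole counts per gene symbol that the authors deposited without normalization. Per the submitters' processing notes, which give no roles, Trim Galore 0.60, STAR 2.7.1a, RSEM 1.3.0 and mm10 were used. The strand setting is not given there. Per the labels' protocols, a Click-iT kit served for capture and a KAPA Hyper Prep kit for the libraries. Counter entries (no feature, ambiguous and the like) stayed out of totals and tests, the entry for no feature being 90.3 to 92.8% of a table. Of 55291 symbols, 53180 matched GENCODE M21, which gave mm10 coordinates.

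Libraries of a clone and condition were summed, giving 12 sums. Features passing filterByExpr (minimum count 10, total 15), 22738 in all, were scaled by TMM and tested with edgeR 4.0.16 (R 4.3.3, limma 3.58.1), quasi-likelihood and robust, with a clone term and Benjamini-Hochberg adjustment at 0.05. The common biological coefficient of variation was 0.103 with 5 residual degrees of freedom. The clone difference was tested on single libraries. In simulated counts of 22738 features, 100 were changed 2-fold and 100 were changed 4-fold. Of these, 56% of 2-fold and 90% of 4-fold changes were recovered, and 3.95% of 152 calls were false. Far fewer features changed there than were called in the data, so these shares are not the recovery rate of the reported test.

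The members, the 33 lists and the tests were chosen with earlier results of these data known. To be named, a protein-coding feature had to be called, to average 10 CPM or more, to have groups that did not overlap, to bear no provisional name and not to lie wholly inside an other-strand gene. From these the report took 14 a direction, ordered by fold change. Smarce1 was added, as were at most 4 members of each list by adjusted p, some of which are not reported here. Any other member given with a value was chosen after its values were seen. Position classes, per-gene other-strand sums, promoter searches and the fit without TMM were added after seeing the data. Coding genes over 1 Mb (59) were left out as other-strand genes. Alternatives were DESeq2 1.42.0 and its size factors, no filter, no clone term, other sets of samples, single libraries, limma-voom, a replicate block, and each library, each clone, the 0 min sums, mitochondrial features or nested features left out.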

Additional observations from a re-analysis of the deposited data

Results flagged for a closer look

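In 270 groups of 4 libraries, over 128 features chosen for description and 7 measures of the libraries, 10 had a library far from the other 3 by Dixon's criterion, where chance gives about 1 in 20. At 90 min in A10 replicate 1, Rcbtb2 stood at 402 CPM against 328 to 339 CPM, Zfp36l1 at 8.59 CPM against 11.3 to 11.4 CPM, Ccnh at 122 CPM against 82.7 to 85.9 CPM and Gapdh at 42.6 CPM against 38.7 to 39.2 CPM. At 90 min in A04, replicate 1 had Brd2 at 125 CPM against 90.8 to 96.1 CPM, and replicate 2 had Amotl2 at 18.9 CPM against 14.1 to 14.7 CPM and Nelfa at 92.8 CPM against 103 to 105 CPM. At 45 min, A10 replicate 1 had Etv5 at 110 CPM against 87.5 to 89.2 CPM and Amotl2 at 72.1 CPM against 58.4 to 59.5 CPM, and A04 replicate 1 had Otx2 at 9.94 CPM against 7.20 to 7.62 CPM.

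In 10 features the change from 45 to 90 min differed between the clones, by the interaction test in edgeR. As the A10 change minus the A04 change on the log2 scale, these were Rab3c (1.64), Gm47283 (1.45, adjusted p = 0.000185), Gm10629 (1.33), Igf2r (1.27) and Mtmr7 (1.19), and Tmem179 (-2.82), Gm46515 (-1.61), Mgat4e (-1.53), Osbpl10 (-1.38) and Nup214 (-1.37). Apart from Gm47283 their adjusted p lay between 0.0408 and 0.0457. Tmem179 changed by 2.07 in A04 and changed by -0.56 in A10, with Gm47283 at -1.21 and 0.23.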

How the results depend on the processing

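Among 2920 repeats for features chosen for description, 2832 kept their direction and their side of the threshold, 23 lost and 28 gained a call, and 37, in 6 features that were called neither there nor in the reported fit, changed sign. On the log2 scale Hnrnpa2b1 turned to 0.0594 with DESeq2's size factors, 0.0594 with DESeq2, 0.0668 without filtering, 0.0654 with 24 sums of both genotypes, 0.0643 with the 4 sums, 0.0273 with single libraries, 0.0230 with the replicate block, 0.0307 with limma-voom, 0.0324 without clone A10, 0.0632 without the 0 min sums and 0.1297 with nested features left out. Gm37876 turned in the same order, up to limma-voom, to 0.0537, 0.0710, 0.0618, 0.0606, 0.0514, 0.0180, 0.0374 and 0.126, to 0.238 without clone A04 and to 0.0585 without the 0 min sums. Zfp42 turned to -0.0632 without clone A04 and -0.0606 without TMM, Gm11198 to -0.0872 without clone A10, Igf2r to 0.400 without clone A04 and Phykpl to 0.00517 with nested features left out. Leaving out single libraries gave -0.370 to 0.348 for Gm37876, -0.0268 to 0.160 for Zfp42 and -0.115 to 0.151 for Hnrnpa2b1. Of 1518 repeats of list counts 141 moved by over 1.5 times. The total count of higher features moved to 2867 without clone A10, and that of lower features to 3453 with DESeq2 and to 3388 without clone A10. Leaving out single libraries gave 4129 to 4512 higher and 4824 to 5359 lower. Without clone A04 the counts were 3868 and 4362.

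Medians by feature length, from the shortest class to the longest, were -0.13, -0.31, -0.23, -0.091, 0.012 and 0.066 without TMM. For protein-coding features the first 4 classes had -0.43, -0.30, -0.17 and -0.0032. DESeq2 gave 0.048, -0.13, -0.063, 0.084 and 0.19 for the first 5. Classes of the same rank by exon count gave 0.14, -0.076, -0.19, -0.12, -0.093 and -0.014. Leaving out single libraries gave -0.05 to 0.03, -0.23 to -0.17, -0.16 to -0.10, -0.013 to 0.037, 0.10 to 0.16 and 0.15 to 0.20. The scaling alone shifts the median of all features by 0.07 (DESeq2's size factors) or -0.11 (no TMM).

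The median at 100 to 200 kb inside an other-strand gene was 2.33 with the 4 sums of these times alone, 2.20 without clone A04 and 1.92 to 2.18 when leaving out single libraries. The median after other-strand genes under 10 kb was -0.63 with DESeq2, with its size factors and with the 4 sums, -0.62 without filtering, with 24 sums of both genotypes and without the 0 min sums, -0.55 with nested features left out, -0.80 without TMM and -0.73 to -0.64 when leaving out single libraries.

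The replicate numbers paired 45 and 90 min libraries weakly (correlations of their deviations 0.0967 in A04 and 0.156 in A10), and with 2 pairs they were not taken as a pairing. With the replicate number as a block the counts were 4732 higher and 5120 lower.

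Small changes can be missed, and 56% of 2-fold changes were recovered in the test on known changes. Only 100 features of each size were changed in that test, and depth was not varied. Features near 10 counts carry wide errors. The 2 clones are the replicates. Reads credited to a feature and to the gene on its other strand cannot be told apart here, and their share moved between 45 and 90 min.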
